A study of Mus musculus with 12 samples.

Results

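The 10 genes Spry1, Spry2, Spry4, Spred1, Spred2, Dusp6, Il17rd, Etv1, Etv4 and Etv5 are standard feedback inhibitors and transcription factor targets of signalling from fibroblast growth factors (FGFs) through the kinase ERK. They were taken by name from the 24391 genes counted in each sample by their known roles, and all 10 were found. RNA sequencing was done on the anterior hard palate, the part of the mouth's roof that turns to bone, dissected from C57BL/6 mouse embryos. The mutants carried Shox2-Cre and R26R-Fgf8, so that Cre recombinase made from the Shox2 locus switched on an Fgf8 transgene at the Rosa26 locus. There were 3 Shox2Cre;R26RFgf8 samples and 3 wild type controls at embryonic day 16.5 (E16.5), and 3 of each at embryonic day 14.5 (E14.5), 12 in all. The series title states an interest in how Fgf8 alters the fate of bone-forming cells.

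FGFs bind receptor tyrosine kinases at the cell surface and pass a signal through RAS, RAF and MEK to ERK. ERK activity turns on genes that damp the same pathway: Sprouty and Spred proteins act between the receptor and RAF, Il17rd (also called Sef) acts at the receptor and on ERK, and Dusp6 removes phosphate from ERK in the cytoplasm. The ETS family factors Etv1, Etv4 and Etv5 are switched on by the same signals and carry them to the genome. In the palate, FGFs signal between mesenchyme and epithelium during outgrowth of the shelves, and Shox2 marks the anterior mesenchyme.

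Some limits of the material touch every value. Cre is made where Shox2 is active, whereas the RNA came from the whole dissected tissue, epithelium and vessels included. In such bulk samples fewer cells of a type and less RNA per cell cannot be told apart. No label tells single embryos from pooled ones, and p-values measure only the spread between samples whose origin is not stated.

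Libraries held 76417891 to 125996587 counts, and no count of any of the 10 genes in any library was below 416. Fgf8 was at 16.5, 14.01 and 17.8 CPM (counts scaled to equal library totals) in E16.5 mutants, against 0.430, 0.462 and 0.257 CPM in E16.5 controls. At E14.5 it was at 10.5, 11.1 and 10.8 CPM in mutants and 0.275, 0.249 and 0.423 CPM in controls, so Fgf8 separated the genotypes at each age. Shox2, whose locus drives Cre, was at 152, 113 and 154 CPM in E16.5 mutants and 89.6, 85.3 and 97.02 CPM in E16.5 controls, and at 198, 209.6 and 231 CPM in E14.5 mutants and 159, 186 and 191 CPM in E14.5 controls. All 11 palate mesenchyme markers were detected in each group. Their summed level was 2097 to 2997 CPM in E16.5 mutants, against 1094 to 1253 CPM in E16.5 controls, and 2647 to 3005 CPM in E14.5 mutants, against 1684 to 1859 CPM in E14.5 controls. The sum over 8 osteoblast markers was 706 to 960.0 CPM in E16.5 mutants, against 2768 to 3440.0 CPM in E16.5 controls, and 3091 to 3814 CPM in E14.5 mutants, against 7888 to 10127 CPM in E14.5 controls. E16.5 mutant libraries 1 and 3 stood apart: 15 retina markers summed to 179.6, 35.1 and 112 CPM in E16.5 mutants 1, 2 and 3, against 45.8 to 51.8 CPM in E16.5 controls, and 11 neuron markers to 345, 69.8 and 210.3 CPM, against 56.4 to 60.5 CPM. The 8 epithelial markers summed to 6870 CPM in E16.5 mutant 1, 11666 CPM in mutant 2 and 9439 CPM in mutant 3, against 10988 to 11433 CPM in the controls, and to 1602 to 1692 CPM in E14.5 mutants, against 942 to 1581 CPM in E14.5 controls. Xist, the RNA of the inactive X chromosome, was at 888 to 914 CPM in E16.5 mutants, against 341 to 481 CPM in E16.5 controls, and at 441 to 521 CPM in E14.5 mutants, against 709 to 861 CPM in E14.5 controls. The 4 Y-linked genes Ddx3y, Eif2s3y, Kdm5d and Uty were called higher in E14.5 mutants and lower in E16.5 mutants by the tests below. Xist and these 4 together summed to 999 to 1012 CPM in E16.5 mutants, against 549 to 688 CPM in E16.5 controls. At E14.5 the sums were 584 to 660 CPM in mutants and 797 to 898 CPM in controls. In every library the sum was above Xist alone, so each held both Xist and Y-linked RNA. The 8 endothelial markers summed to 325 to 411 CPM in E16.5 mutants, against 240.0 to 255 CPM in E16.5 controls, and to 461 to 496 CPM in E14.5 mutants, against 562 to 606 CPM in E14.5 controls. The 6 cartilage markers summed to 403 to 625 CPM in E16.5 mutants, against 101.2 to 121 CPM in E16.5 controls. At E14.5 they summed to 323 to 352 CPM in mutants, against 318 to 428 CPM in controls. Although these E14.5 sums overlapped, 4 of the 6 cartilage markers were called higher and 1 lower in E14.5 mutants by the tests below. The median log2 fold change of the 6 at E14.5 was 1.06. At E16.5 the calls were also 4 higher and 1 lower. The part of these shifts in the results below was not tested, except where values without mutant libraries 1 and 3 are given.

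**Figure D1:**
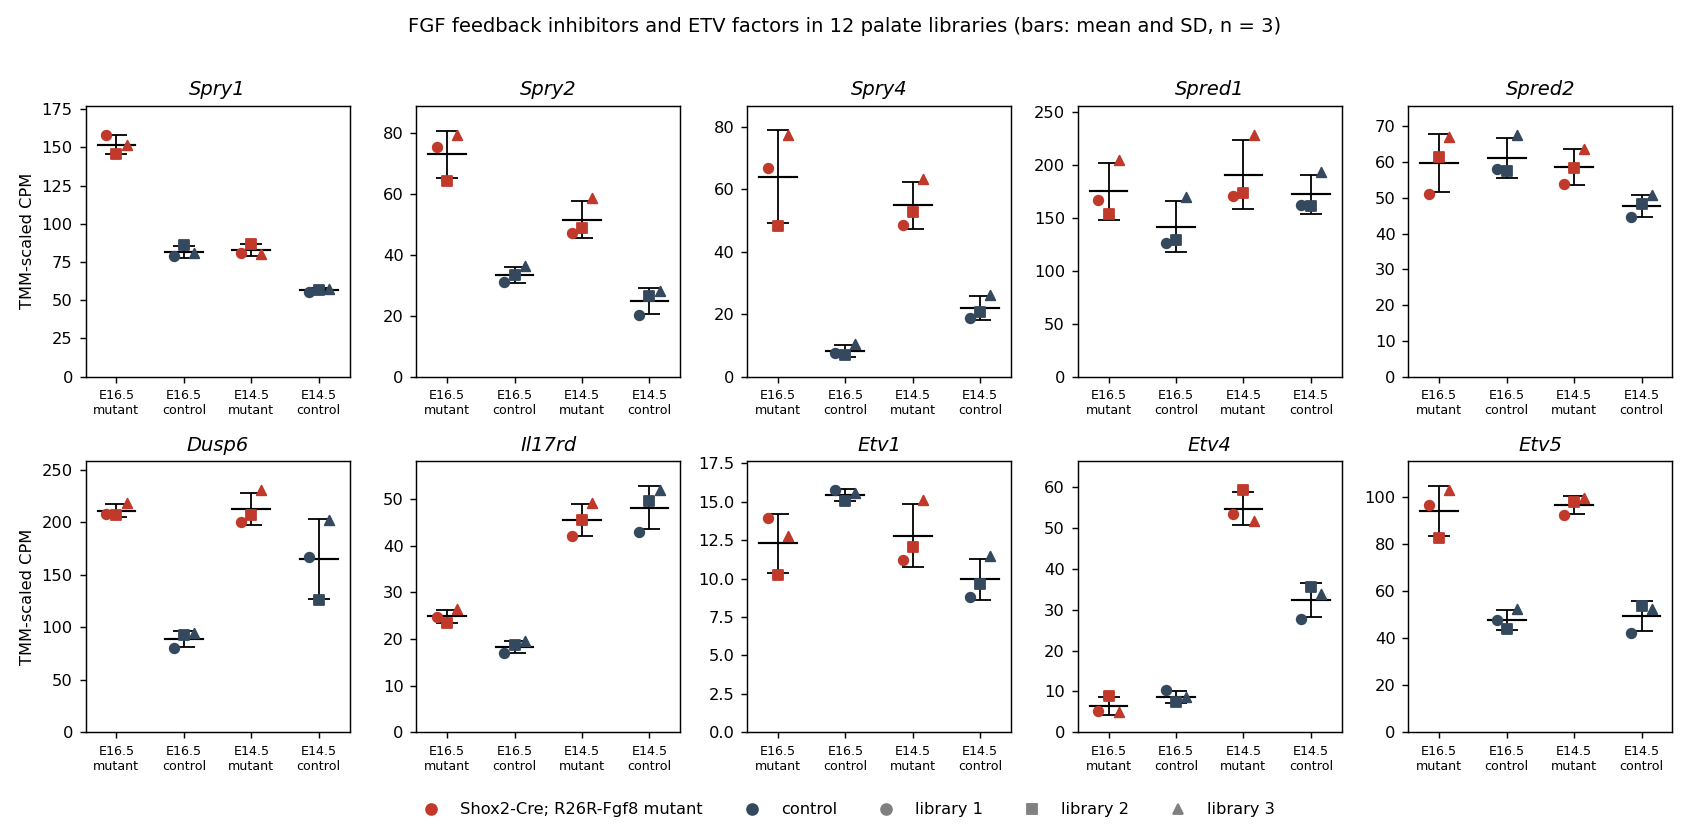
Level of each of the 10 genes in CPM (vertical axes, each from 0) in E16.5 mutants, E16.5 controls, E14.5 mutants and E14.5 controls; points are the 3 libraries of a group, marked by replicate number, and the bar is the mean with its SD. Spry1, Spry2, Spry4 and Etv5 were higher in every mutant library than in any control library of the same age, and Etv4 was below 11 CPM in all E16.5 libraries of either genotype.

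The E14.5 comparison sets these genes in mutants against controls as the palate shelves fuse and bone starts to form. All 10 genes passed the filter on low counts, and 6 of them were higher in mutants and 0 lower (edgeR's quasi-likelihood test, Benjamini-Hochberg adjusted p under 0.05), where 7.52% of all 16650 genes tested were called, 2.95% higher and 4.57% lower. Their median log2 fold change was 0.46, against 0.01 over all genes tested. The called genes were the inhibitors Spry1, Spry2, Spry4 and Spred2 and the transcription factors Etv4 and Etv5. In these 6 all mutant libraries lay above the highest control, as in 14.6% of all genes tested.

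Spry4 had the largest fold change of the 10 genes at E14.5. Spry4, which blocks activation of the RAS and RAF step, was at 48.6, 52.6 and 63.3 CPM in E14.5 mutants and 18.8, 20.6 and 26.2 CPM in E14.5 controls (log2 fold change 1.33, SE 0.13, adjusted p = 0.000180). Spry2, which binds adaptor proteins of the receptor, was at 47.2, 48.8 and 58.4 CPM in mutants and 20.1, 26.3 and 28.2 CPM in controls (log2 fold change 1.05, SE 0.12, adjusted p = 0.000684). Spry1, a related inhibitor of the same step, was at 80.7, 87.1 and 80.4 CPM in mutants and 55.4, 56.9 and 57.7 CPM in controls (log2 fold change 0.55, SE 0.06, adjusted p = 0.000293). In each of these the lowest mutant library lay above the highest control library.

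The Spred genes, membrane proteins with a Sprouty-like domain that bind neurofibromin, gave smaller fold changes. Spred2 was at 53.8, 58.3 and 63.7 CPM in E14.5 mutants, against 44.6, 48.2 and 50.7 CPM in controls, with no overlap between the groups, and passed the test narrowly (log2 fold change 0.29, SE 0.08, adjusted p = 0.0423). That call was lost when any 1 of the 6 libraries was left out (log2 fold change 0.23 to 0.35, adjusted p = 0.0517 to 0.142) and when all 12 samples shared 1 fit (log2 fold change 0.29, adjusted p = 0.121). Spred1 was at 170.3, 174 and 228 CPM in mutants and 162, 161 and 193 CPM in controls. Its groups overlapped and it did not pass the test (log2 fold change 0.15, SE 0.11, adjusted p = 0.474). With the replicate number as a block, Spred1 was called (log2 fold change 0.14, adjusted p = 0.0362), but no label says that same-numbered samples are pairs.

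Dusp6 and Il17rd, the inhibitors outside the Sprouty family, were not called at E14.5. Dusp6 was at 200.4, 207 and 230.3 CPM in mutants and 167, 125.9 and 202 CPM in controls, with control 3 inside the mutant range (log2 fold change 0.36, SE 0.14, adjusted p = 0.153). Without control 3 it passed the test (log2 fold change 0.54, adjusted p = 0.0318), as it did with the replicate number as a block (0.39, adjusted p = 0.0204). Il17rd was at 42.1, 45.5 and 49.1 CPM in mutants and 42.9, 49.6 and 51.8 CPM in controls, ranges that overlapped (log2 fold change -0.08, SE 0.08, adjusted p = 0.616).

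Among the ETV factors, Etv5 had the largest difference at this age. It was at 92.6, 98.1 and 99.6 CPM in E14.5 mutants and 42.2, 53.8 and 52.5 CPM in E14.5 controls (log2 fold change 0.97, SE 0.09, adjusted p = 0.000108). Etv4 was at 53.4, 59.3 and 51.7 CPM in mutants and 27.7, 35.5 and 33.9 CPM in controls (log2 fold change 0.76, SE 0.10, adjusted p = 0.000992). For both genes the mutant and control ranges did not overlap. Etv1, the third of the group, was at 11.2, 12.1 and 15.1 CPM in mutants and 8.80, 9.64 and 11.4 CPM in controls, with mutant 1 just below control 3 (log2 fold change 0.36, SE 0.13, adjusted p = 0.137). Etv1 was called with the replicate number as a block (log2 fold change 0.36, adjusted p = 0.0144).

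Promoters were read because 6 of the genes were higher together in these mutants. Windows from 250 bases before to 50 after each start site came from RefSeq (GRCm38.p6), which held 10 windows for 8 of the 10 genes, all but Spry4 and Etv4, so that 4 of the 6 higher genes were covered. Capicua, the product of Cic, is a repressor that ERK signalling relieves and that binds octamers such as TGAATGAA and TGAATGGA. The octamers TGAATGAA, TGAATGAG, TGAATGGA and TGAATGGG were searched on both strands, and the last 2 bases were widened to either purine after the Etv5 window had been seen. They occurred in 4.60% of 32851 windows, and in 1 of the 10 windows read here, a window of Etv5 that held 3 copies. Octamers ending in A occurred in 2.47% of windows and in 0 of these 10. The stretch with the 3 copies lies at chr16:22438479-22438618 on the minus strand, 250 to 111 bases before that start site and outside annotated exons. It is shown because this window was the only 1 of the 10 with octamers, so it was chosen for its hits. The capitals mark the octamers at 242, 198 and 131 bases before the start site, the last read on the other strand.
Etv5: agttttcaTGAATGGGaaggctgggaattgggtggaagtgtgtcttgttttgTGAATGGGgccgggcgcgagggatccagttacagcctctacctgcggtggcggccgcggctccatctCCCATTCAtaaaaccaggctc
The ETS core CCGGAAG occurred in 8.86% of all windows and the AP-1 site TGANTCA in 7.81%, and these letters were in none of the 10 windows on either strand. Cic itself was not called between genotypes at either age, at 276 ± 18.1 CPM in E16.5 mutants and 268 ± 6.12 CPM in E16.5 controls, and at 288 ± 15.6 CPM in E14.5 mutants and 319 ± 11.8 CPM in E14.5 controls (mean ± SD, n = 3 in each group, as for all values written with ± here). A match of letters is a description of the sequence and not a binding site.

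At the later age, E16.5, the same comparison again called 6 of the 10 genes. The 6 were higher in mutants and 0 were lower, where 27.9% of all 17169 genes tested were called, 12.2% higher and 15.7% lower, and their median log2 fold change was 0.69, against 0.01 over all genes tested. The called set was now Spry1, Spry2, Spry4, Dusp6, Il17rd and Etv5. In these 6 every mutant library lay above every control library, as in 18.3% of all genes tested at this age. Spry1, Spry2, Spry4 and Etv5 were thus called higher at both ages, 4 of the 10 genes, where 1.26% of the 16398 genes tested at both ages were.

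Spry4 showed the widest gap between genotypes of the 10 genes. It was at 66.7, 48.1 and 77.3 CPM in E16.5 mutants and 7.60, 6.79 and 10.4 CPM in E16.5 controls (log2 fold change 2.98, SE 0.21, adjusted p = 2.41e-05). The lowest mutant value, in library 2, was still several times the highest control value. Spry2 was at 75.1, 64.2 and 79.2 CPM in mutants and 30.9, 33.4 and 36.1 CPM in controls (log2 fold change 1.15, SE 0.10, adjusted p = 6.74e-05). Spry1 was at 158, 146 and 151 CPM in mutants and 78.7, 86.3 and 80.6 CPM in controls (log2 fold change 0.92, SE 0.07, adjusted p = 4.04e-05). The genotypes did not overlap for any of the 3 Sprouty genes.

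Dusp6, which ends ERK activity by dephosphorylation, was at 208, 207 and 218 CPM in E16.5 mutants and 80.5, 92.4 and 94.6 CPM in E16.5 controls (log2 fold change 1.27, SE 0.08, adjusted p = 1.43e-05). The mutant libraries lay close together and all controls were below 100 CPM. Il17rd was at 24.7, 23.5 and 26.3 CPM in mutants and 16.9, 18.6 and 19.4 CPM in controls (log2 fold change 0.46, SE 0.09, adjusted p = 0.00473). Its groups did not overlap, but without mutant libraries 1 and 3, which leaves 1 mutant library, the call was lost (log2 fold change 0.37).

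The Spred genes were not called at E16.5. Spred2 was at 51.1, 61.3 and 67.0 CPM in mutants and 58.2, 57.5 and 67.6 CPM in controls (log2 fold change -0.01, SE 0.10, adjusted p = 0.964). Spred1 was at 167, 153 and 205 CPM in mutants and 126.4, 129 and 169 CPM in controls, with control 3 above mutants 1 and 2 (log2 fold change 0.33, SE 0.14, adjusted p = 0.115). With the replicate number as a block, Spred1 was called (log2 fold change 0.33, adjusted p = 0.00445). Same-numbered samples passed the correlation limit at this age, which does not show that they are pairs.

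Of the ETV factors, Etv5 was called at E16.5. This gene was at 96.9, 82.5 and 103 CPM in mutants and 47.6, 43.7 and 52.3 CPM in controls (log2 fold change 1.0, SE 0.10, adjusted p = 0.000189). Etv4 was low in both genotypes, at 5.10, 8.92 and 4.95 CPM in mutants and 10.2, 7.31 and 8.57 CPM in controls, and its groups overlapped through mutant 2 (log2 fold change -0.44, SE 0.23, adjusted p = 0.199). Without mutant library 2 it was called lower (log2 fold change -0.76, adjusted p = 0.00665), and without mutant libraries 1 and 3 its log2 fold change was 0.04. Etv1 was at 13.9, 10.2 and 12.8 CPM in mutants and 15.7, 15.02 and 15.5 CPM in controls. Every mutant library was below every control library, as for 24.5% of all genes tested, but the test was not passed (log2 fold change -0.30, SE 0.13, adjusted p = 0.113). It was called without mutant library 1 (log2 fold change -0.41, adjusted p = 0.0462). With library 2 as the only mutant, Etv1 had a log2 fold change of -0.59.

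With mutant library 2 as the lone mutant, the spread came from the 3 E16.5 controls alone, so only effect sizes are given. For the genes called on all E16.5 libraries, the log2 fold changes were then 2.55 for Spry4, 1.22 for Dusp6 and 0.95 for Spry2. They were 0.84 for Spry1, 0.79 for Etv5 and 0.37 for Il17rd. Library 2 had a retina marker sum below the controls' range, the highest epithelial marker sum of the E16.5 mutants, the highest Etv4 among them and the lowest level of all 6 called genes and of Spred1 and Etv1.

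**Figure D2:**
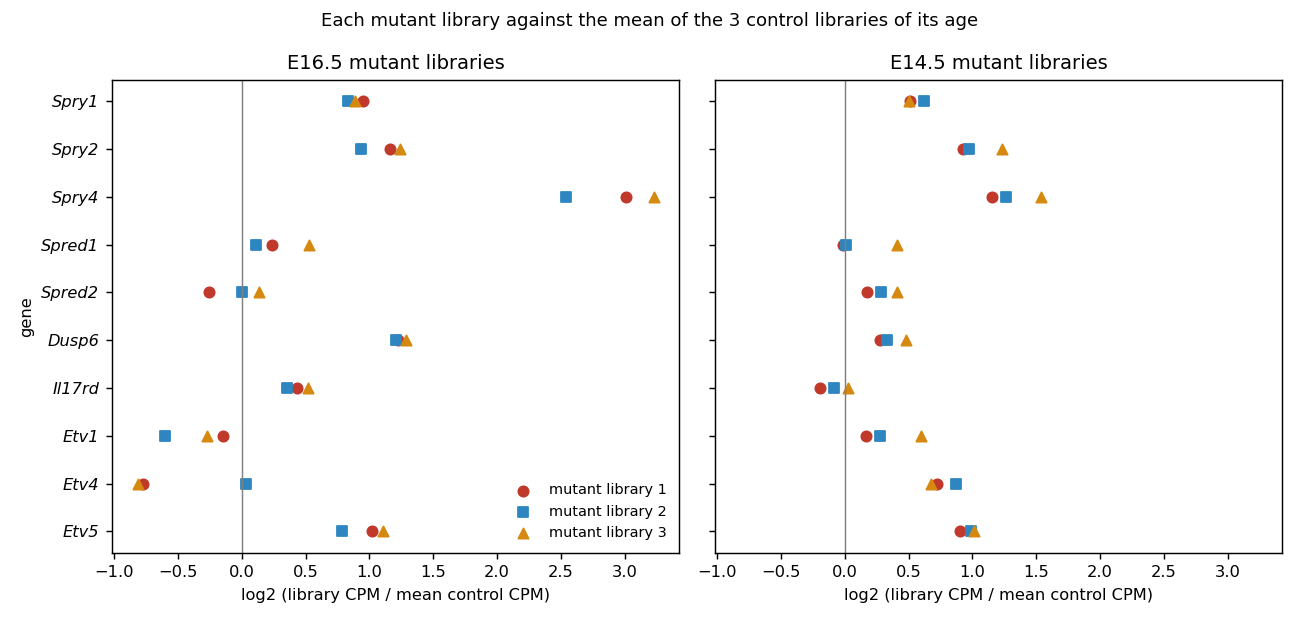
Log2 ratio of each mutant library's CPM to the mean of the 3 control libraries of its age (horizontal axis) for the 10 genes, at E16.5 (left) and E14.5 (right); symbols mark mutant libraries 1, 2 and 3. Among the E16.5 mutants, library 2 gave the smallest Spry4 ratio and was the one with Etv4 not below the control mean.

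Whether the genotype effect itself differed between ages was tested in 1 fit of all 12 samples. For 6 of the 10 genes the E16.5 effect differed from the E14.5 effect, 4 with a higher effect at E16.5 and 2 with a lower one, where 22.3% of 17550 genes were called, 9.97% higher and 12.4% lower. The 4 were all inhibitors. The effect on Spry4 was 1.63 log2 units higher at E16.5 than at E14.5 (SE 0.27, adjusted p = 0.00106), that on Dusp6 0.88 (SE 0.19, adjusted p = 0.00504), that on Il17rd 0.52 (SE 0.12, adjusted p = 0.00942) and that on Spry1 0.35 (SE 0.08, adjusted p = 0.00855). Both genes with a lower effect were ETV factors, Etv4 at -1.23 (SE 0.27, adjusted p = 0.00675) and Etv1 at -0.69 (SE 0.20, adjusted p = 0.0237). Without E16.5 mutant libraries 1 and 3, 1 E16.5 mutant was left, and its spread was taken from the other groups. The effect difference was then 1.24 for Spry4, 0.87 for Dusp6 and -0.94 for Etv1. It was 0.31 for Spry1, 0.46 for Il17rd and -0.70 for Etv4, whose calls were lost. The Etv1 call was lost in 7 of the 12 fits that leave out 1 library (adjusted p = 0.0508 to 0.0750).

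For Etv5 and Spry2 no difference in effect was detected. The E16.5 effect minus the E14.5 effect was 0.01 for Etv5 (SE 0.15, adjusted p = 0.977) and 0.07 for Spry2 (SE 0.18, adjusted p = 0.820). It was 0.16 for Spred1 (SE 0.21, adjusted p = 0.648) and -0.32 for Spred2 (SE 0.14, adjusted p = 0.130). For Etv5, Spry2 and Spred1 the estimate was smaller than its SE. For Spred2 it was over 2 SE below 0 without passing the adjusted threshold.

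**Figure D3:**
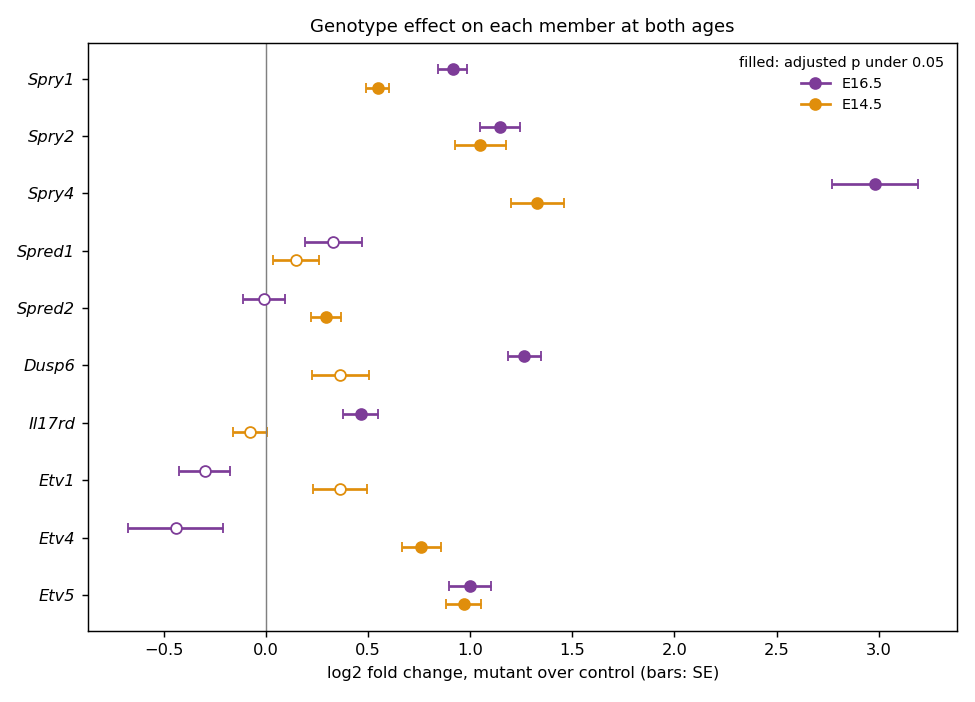
Log2 fold change of mutant over control for each of the 10 genes at E16.5 and E14.5 (horizontal axis, bars are SE), with filled points for an adjusted p under 0.05. Spry4, Dusp6, Il17rd and Spry1 lay further right at E16.5, Etv1 and Etv4 lay on opposite sides of 0 at the 2 ages, and Etv5 lay near 1 at each age.

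The change with age within each genotype gives the levels behind these differences. Controls of the later age differed from E14.5 controls in 8 of the 10 genes, 4 higher and 4 lower, where 66.4% of all genes tested were called, 34.3% higher and 32.1% lower. In mutants 4 of the 10 were called, 2 higher and 2 lower, where 51.6% were called, 27.2% higher and 24.4% lower. Both contrasts use the same groups as the genotype comparisons.

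Spry4 and Dusp6 were called lower with age in controls alone. Spry4 fell to 8.26 ± 1.88 CPM in E16.5 controls, against 21.9 ± 3.86 CPM in E14.5 controls (log2 fold change -1.40, SE 0.20, adjusted p = 3.30e-05). In mutants it was at 64.1 ± 14.8 CPM at E16.5 and 54.8 ± 7.60 CPM at E14.5 (a log2 fold change of 0.22, SE 0.19, adjusted p = 0.336). Dusp6 fell to 89.2 ± 7.61 CPM in E16.5 controls, against 165 ± 38.3 CPM in E14.5 controls (log2 fold change -0.89, SE 0.13, adjusted p = 5.60e-05). In mutants it was at 211 ± 6.23 CPM at E16.5 and 213 ± 15.7 CPM at E14.5 (a log2 fold change of -0.01, SE 0.13, adjusted p = 0.946). The 12-sample test of the effect difference given above is the test of this contrast between genotypes.

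Il17rd and Etv4 fell with age in both genotypes. Il17rd was at 24.8 ± 1.41 CPM in E16.5 mutants and 45.5 ± 3.47 CPM in E14.5 mutants (log2 fold change -0.87, SE 0.09, adjusted p = 2.80e-06). It was at 18.3 ± 1.27 CPM in E16.5 controls and 48.1 ± 4.64 CPM in E14.5 controls (log2 fold change -1.39, SE 0.09, adjusted p = 1.59e-08). Etv4 had the widest range of group means among the 10 genes, 8.66-fold between the mutants of the 2 ages. It was at 6.33 ± 2.25 CPM in E16.5 mutants and 54.8 ± 3.95 CPM in E14.5 mutants (log2 fold change -3.12, SE 0.21, adjusted p = 5.55e-08), and at 8.70 ± 1.47 CPM in E16.5 controls and 32.4 ± 4.14 CPM in E14.5 controls (log2 fold change -1.90, SE 0.20, adjusted p = 2.03e-06).

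Spry1 and Spry2 rose with age in both genotypes. Spry1 was at 152 ± 6.09 CPM in E16.5 mutants and 82.7 ± 3.76 CPM in E14.5 mutants (log2 fold change 0.88, SE 0.06, adjusted p = 4.73e-08), and at 81.9 ± 3.92 CPM in E16.5 controls and 56.7 ± 1.17 CPM in E14.5 controls (log2 fold change 0.53, SE 0.06, adjusted p = 2.71e-06). Spry2 was at 72.8 ± 7.77 CPM in E16.5 mutants and 51.5 ± 6.08 CPM in E14.5 mutants (log2 fold change 0.50, SE 0.12, adjusted p = 0.00459). That call was lost without E16.5 mutant libraries 1 and 3, which leaves 1 mutant library at that age (log2 fold change 0.34). In controls Spry2 was at 33.5 ± 2.63 CPM at E16.5 and 24.9 ± 4.25 CPM at E14.5 (a log2 fold change of 0.43, SE 0.13, adjusted p = 0.00887).

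Etv5 did not pass the test for age in either genotype. It was at 94.1 ± 10.5 CPM in E16.5 mutants and 96.8 ± 3.67 CPM in E14.5 mutants (log2 fold change -0.04, SE 0.10, adjusted p = 0.768). In controls it was at 47.9 ± 4.27 CPM at E16.5 and 49.5 ± 6.37 CPM at E14.5 (a log2 fold change of -0.05, SE 0.10, adjusted p = 0.696). Its 4 groups thus fell into a mutant pair and a control pair, with overlap within each pair and none between them.

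Etv1 and Spred2 rose with age in controls and were not called in mutants, and the difference between genotypes was called for Etv1 and not for Spred2, as given above. Etv1 was at 15.4 ± 0.366 CPM in E16.5 controls and 9.96 ± 1.35 CPM in E14.5 controls (log2 fold change 0.63, SE 0.14, adjusted p = 0.00124). In mutants it was at 12.3 ± 1.91 CPM at E16.5 and 12.8 ± 2.04 CPM at E14.5 (a log2 fold change of -0.05, SE 0.14, adjusted p = 0.764). Spred2 was at 61.1 ± 5.61 CPM in E16.5 controls and 47.8 ± 3.06 CPM in E14.5 controls (log2 fold change 0.35, SE 0.10, adjusted p = 0.00782), a call lost without E16.5 control 3 (adjusted p = 0.0519). In mutants Spred2 had a log2 fold change of 0.03 (adjusted p = 0.832). Spred1 was not called in controls (log2 fold change -0.28, SE 0.15, adjusted p = 0.110) or in mutants (-0.12, SE 0.15, adjusted p = 0.506), but with the replicate block it was called lower in controls (-0.29, adjusted p = 0.000124).

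**Figure D4:**
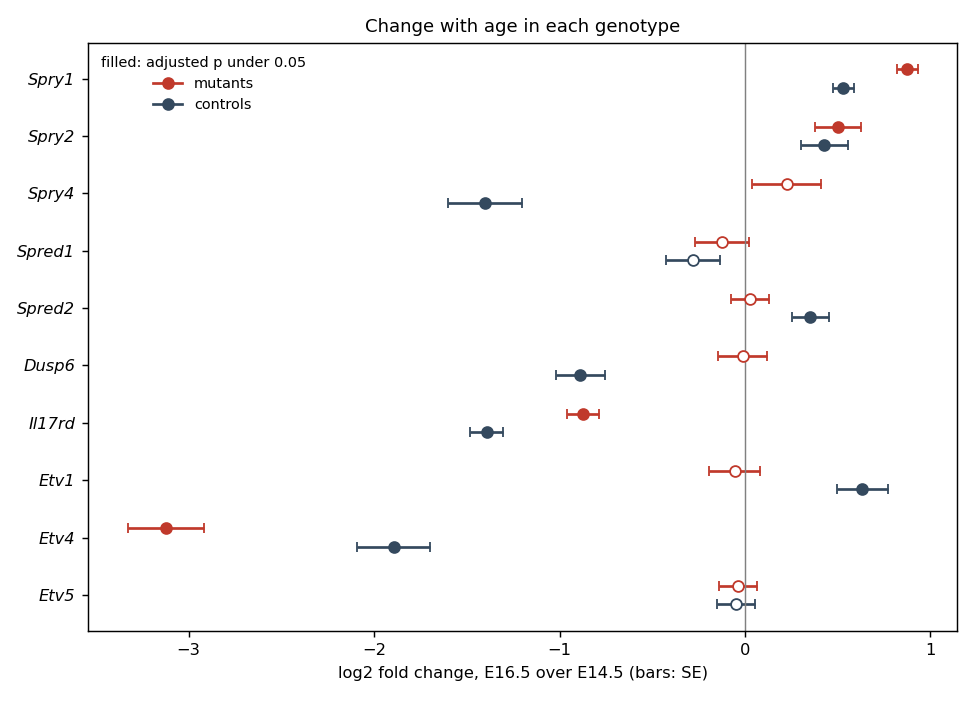
Log2 fold change of E16.5 over E14.5 for each of the 10 genes in mutants and in controls (horizontal axis, bars are SE), with filled points for an adjusted p under 0.05. Spry4 and Dusp6 were below 0 in controls and near 0 in mutants, Etv4 and Il17rd were below 0 in both, and Spry1 and Spry2 were above 0 in both.

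Ordered by group mean, the 4 groups did not line up the same way in each gene. Spry2 had 4 groups apart from their neighbours, with E16.5 mutants highest, then E14.5 mutants, E16.5 controls and E14.5 controls. Spry1 had the same order, but E14.5 mutants overlapped E16.5 controls. Spry4 ran from E16.5 mutants through E14.5 mutants and E14.5 controls to E16.5 controls, a 7.76-fold range, and only its mutant groups overlapped. Dusp6 began with the overlapping E14.5 and E16.5 mutants, then E14.5 controls, then E16.5 controls. In Spred1 and Etv1 each group overlapped its neighbour in the order, over ranges of 1.35-fold and 1.55-fold.

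Library 3 was the highest of its group in all 4 groups for 6 of the 10 genes (Spry2, Spry4, Spred1, Spred2, Dusp6 and Il17rd), as for 14.4% of all 17550 genes tested. The comparisons between genotypes each hold 1 such library per group. In replicates 1 and 2 alone, Spry1, Spry2, Spry4, Etv4 and Etv5 were called higher at E14.5, and the effect-difference calls for Spry1 (adjusted p = 0.0864), Etv1 (adjusted p = 0.104) and Etv4 (adjusted p = 0.0854) were lost.

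The wider pathway was described from lists of related genes. Each count below stands beside the shares over all genes tested. These were 2.95% higher and 4.57% lower at E14.5, and 12.2% higher and 15.7% lower at E16.5. Close relatives of the inhibitors are given first. Of 11 other Sprouty, Spred and dual-specificity phosphatase (DUSP) genes tested, 0 were called at E14.5, and at E16.5 2 were higher and 3 lower in mutants. Dusp9, an ERK phosphatase of the same subgroup as Dusp6, was at 4.37 ± 0.364 CPM in E16.5 mutants and 2.23 ± 0.0513 CPM in E16.5 controls (log2 fold change 0.99, adjusted p = 0.00220). Dusp14 was at 34.7 ± 5.34 CPM in mutants and 67.2 ± 4.94 CPM in controls (log2 fold change -0.93, adjusted p = 0.000392), and Dusp5, a nuclear ERK phosphatase, at 3.75 ± 0.636 CPM in mutants and 8.36 ± 3.14 CPM in controls (log2 fold change -1.14, adjusted p = 0.0133). Dusp2 was the other gene called higher and Dusp16 the other called lower. Spry3 had 0 counts in every library.

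Of 16 other targets of FGF and ERK, 1 was higher and 2 lower in E14.5 mutants, and 5 were higher and 1 lower in E16.5 mutants. Myc, a growth-promoting transcription factor, was higher at both ages. It was at 85.8, 88.9 and 90.8 CPM in E14.5 mutants and 30.0, 16.6 and 25.4 CPM in E14.5 controls (log2 fold change 1.89, SE 0.17, adjusted p = 0.000108). At the later age Myc was at 79.8, 127 and 115 CPM in mutants and 38.6, 39.8 and 38.0 CPM in controls (log2 fold change 1.49, SE 0.15, adjusted p = 0.000149). Ccnd1, cyclin D1, was at 142 ± 5.75 CPM in E14.5 mutants and 197 ± 20.7 CPM in E14.5 controls (log2 fold change -0.48, adjusted p = 0.00544). Sulf1, which trims the heparan sulphate that FGFs bind, was at 202 ± 29.0 CPM in E16.5 mutants and 84.9 ± 8.77 CPM in E16.5 controls (log2 fold change 1.27, adjusted p = 8.76e-05), whereas its relative Sulf2 was at 418 ± 10.9 CPM in E14.5 mutants and 589 ± 68.2 CPM in E14.5 controls (log2 fold change -0.49, adjusted p = 0.00570). Flrt2 rose and Lrig1 fell at E16.5 (log2 fold changes 0.86 and -0.74). Mycn and Phlda1 complete the 5 that were higher.

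Immediate early genes, which respond to ERK within minutes in cultured cells, were examined next. Of 11 tested, 0 were higher and 2 lower in E14.5 mutants, and 1 was higher and 0 lower in E16.5 mutants. Egr3, a zinc finger factor, was the gene called at both ages, in opposite directions. It was at 15.2, 13.1 and 16.6 CPM in E14.5 mutants and 19.1, 27.2 and 26.3 CPM in E14.5 controls (log2 fold change -0.69, SE 0.14, adjusted p = 0.0135). At the later age Egr3 was at 8.05, 7.41 and 7.99 CPM in mutants and 2.12, 1.31 and 2.83 CPM in controls (log2 fold change 1.93, SE 0.25, adjusted p = 0.000783). Fos was the other gene lower at E14.5, at 9.73 ± 5.09 CPM in mutants and 33.4 ± 20.5 CPM in controls (log2 fold change -1.78, SE 0.47, adjusted p = 0.0493).

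Ligands and receptors of the pathway were called in both directions, as were all genes tested (12.2% higher and 15.7% lower at E16.5). Of 15 FGF ligands other than Fgf8 tested at E14.5, 0 were higher and 1 was lower, Fgf18, a bone and cartilage ligand, at 5.36 ± 0.190 CPM in mutants and 8.32 ± 0.274 CPM in controls (log2 fold change -0.63, adjusted p = 0.00405). At the later age 3 of 14 were higher and 4 lower. Fgf18 was then at 0.809 ± 0.444 CPM in mutants and 5.24 ± 0.434 CPM in controls (log2 fold change -2.70, adjusted p = 0.00125), and Fgf16 and Fgf22 were also lower (log2 fold changes -1.34 and -1.30). Fgf15, which the retina marker list also holds, was at 40.4, 0.347 and 21.2 CPM in E16.5 mutants and 0.883, 0.0901 and 0.413 CPM in controls (adjusted p = 0.0181), with both high values in mutant libraries 1 and 3. Fgf3 and Fgf21 were the other ligands called higher and Fgf1 the fourth called lower.

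Of 13 receptors and co-receptors, 0 were higher and 2 lower in E14.5 mutants, and 4 were higher and 1 lower in E16.5 mutants. Fgfrl1, a receptor without a kinase domain, was at 54.9 ± 3.34 CPM in E16.5 mutants and 28.03 ± 1.15 CPM in E16.5 controls (log2 fold change 0.99, adjusted p = 3.61e-05). Fgfr1, the main receptor of mesenchyme, was at 407 ± 30.4 CPM in mutants and 276 ± 6.99 CPM in controls (log2 fold change 0.59, adjusted p = 0.00103). Fgfr3, a receptor of cartilage and bone, was lower at both ages with a log2 fold change of -0.42 at each (adjusted p = 0.00349 at E16.5 and 0.0125 at E14.5). Sdc2 and Sdc3 were also higher at E16.5, and Gpc1, a heparan sulphate co-receptor, was also lower at E14.5.

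Few genes of the kinase cascade itself were called. Of 24 genes from adaptor to kinase, 0 were called at E14.5 and 1 was higher at E16.5, the adaptor Shc1 (195 ± 14.4 CPM in mutants and 159 ± 2.40 CPM in controls, log2 fold change 0.32, adjusted p = 0.0186). Among other ETS factors and the repressor Cic, 0 of 19 were higher and 3 lower at E14.5 (Ets2, Spi1 and Erg). At E16.5, 2 of 18 were higher (Elk3 and Ets1) and 3 lower (Elf3, Ehf and Spdef), where 12.2% and 15.7% of all genes tested were. Erg is also 1 of the 8 endothelial markers, of which 6 were called lower at E14.5 and 7 higher at E16.5. The part of endothelial RNA in these calls was not tested. Elf3 and Ehf, ETS factors of epithelium, had log2 fold changes of -0.87 and -0.91, beside epithelial marker sums of 6870 to 11666 CPM in E16.5 mutants and 10988 to 11433 CPM in E16.5 controls, and the part of those sums was not tested.

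**Figure D5:**
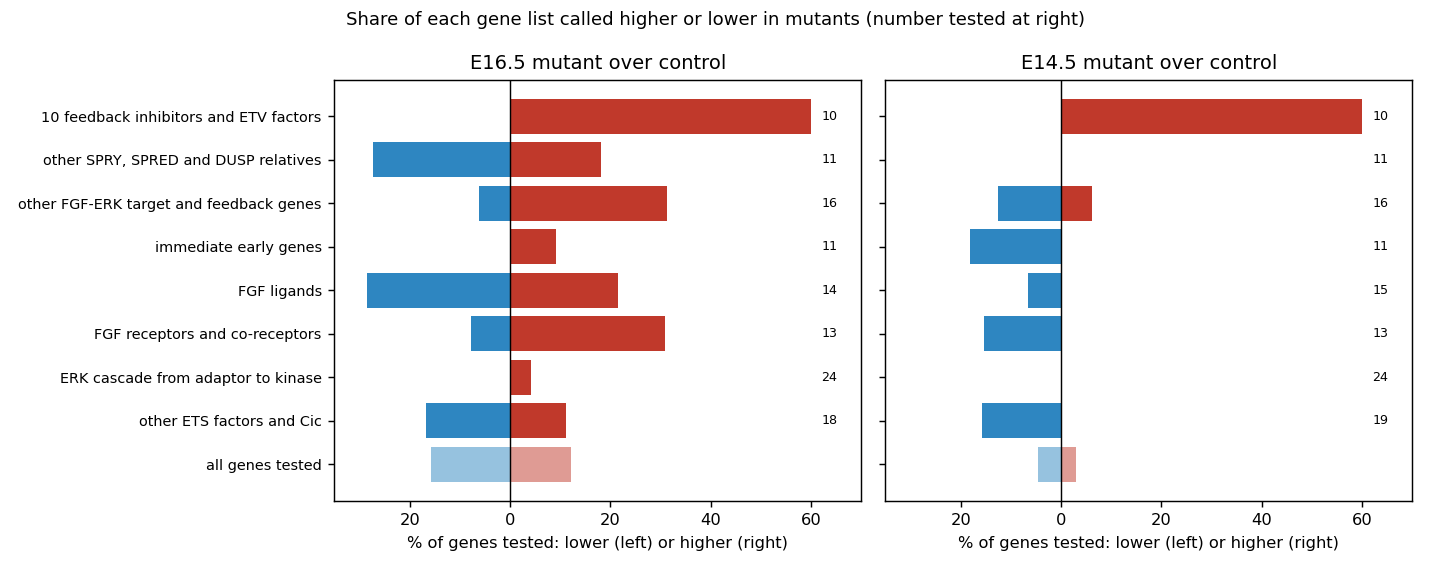
Percentage of the genes tested in each list that were called higher (right of 0) or lower (left of 0) in mutants at E16.5 and at E14.5, with the number tested at the right and all genes tested as faint bars. The 10 feedback inhibitors and ETV factors reached 60% higher and 0% lower at each age, against 12.2% and 15.7% of all genes at E16.5 and 2.95% and 4.57% at E14.5.

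For the 4 genes called at both ages, the closest profiles over the 12 samples were sought among 12546 genes with a mean log2 CPM of at least 1. Likeness was the root mean square difference between log2 CPM profiles, each centred on its own mean, so that 0 is an identical shape. Closest to Spry1, whose own profile spread by 0.51, were Pitpnm3 (0.12), Abcc12 (0.12) and Abi3bp (0.14). Closest to Spry2 were Pam (0.19), Fam129a (0.20) and Piezo2 (0.23), and closest to Etv5 were Id4 (0.16), Opcml (0.19) and Ccdc85a (0.20). Spry4 had the largest spread, 1.21, and its closest profiles were less alike: Zmat4 (0.41), Col25a1 (0.43) and Ephb1 (0.45). Among the 10 genes themselves the closest to Spry1 was Spry2 at 0.27, to Etv5 it was Spry2 at 0.28, and to Spry4 it was Dusp6 at 0.72. As an example of level, Id4, an inhibitor of basic helix-loop-helix factors, was at 67.4 ± 4.77 CPM in E16.5 mutants, 32.3 ± 3.48 CPM in E16.5 controls, 56.6 ± 6.26 CPM in E14.5 mutants and 33.4 ± 1.13 CPM in E14.5 controls.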

How the data were processed

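RNA from 12 anterior hard palate samples was sequenced. The authors deposited raw counts per gene, made from reads aligned to mm9 with HISAT2 and counted with featureCounts, per the submitters' processing notes. Versions, annotation and strand setting are not given in the sources used here, so reads of overlapping and antisense genes cannot be told apart. The authors' DESeq2 tables of log2 fold changes and adjusted p-values were also deposited. They were read for the 10 genes alone, and 24 columns of further per-sample values in other tables were not used.

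Of 24391 symbols, 23322 matched reference names. The 27 genes whose names appear as dates held 0.251% of counts and stayed in the fits.

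Counts were tested with edgeR 4.0.16 in R 4.3.3 (TMM factors, filterByExpr, quasi-likelihood test), with Benjamini-Hochberg adjustment over all genes tested and a threshold of 0.05. Genotype was compared on the 6 samples of an age. Age, and the difference between the genotype effects, came from a fit of all 12. SE is the log2 fold change over the square root of F. CPM are scaled by the TMM factors. Reads carry no molecular identifiers. SE and p-values cover the spread between the libraries of a group as well as counting error. In simulated data the E14.5 test recovered 84% of 1.5-fold and 99% of 2-fold changes, the E16.5 test 58% and 95%, and the test of the effect difference 30% and 85%.

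The 10 genes and all lists were chosen with earlier results of these data known. Genes named besides them were up to 4 called per list with the smallest adjusted p, and the 3 closest profiles of each gene called at both ages. The remaining called genes of small counts (Dusp16, Mycn, Phlda1, Fgf1, Fgf3, Fgf21, Sdc3 and Ets1 at E16.5) were named after their values were seen.

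Same-numbered samples were checked for deviating together over 13463 genes. The correlations were 0.196, 0.241 and 0.695 for E16.5 mutants with E16.5 controls. They were 0.149, 0.236 and 0.560 for E16.5 controls with E14.5 controls, all over 0.1, the limit set for reading the replicate block. Each group was centred on its mean of 3, so a shared shift of libraries numbered 3 also makes the other correlations positive. Libraries numbered 3 correlated at 0.559 at E14.5 too, so the limit does not separate the ages or show pairs. Alternatives were other scalings, filters and tools (DESeq2 1.42.0 and limma-voom from limma 3.58.1), the block, replicates 1 and 2 alone, and libraries left out.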

Additional observations from a re-analysis of the deposited data

Results flagged for a closer look

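Of the 10 genes, 6 had a genotype effect that differed between the ages, by the test of that difference in the fit of all 12 samples with edgeR. The E16.5 effect minus the E14.5 effect, in log2 units, was 1.63 for Spry4 (adjusted p = 0.00106), 0.88 for Dusp6 (adjusted p = 0.00504), 0.52 for Il17rd (adjusted p = 0.00942) and 0.35 for Spry1 (adjusted p = 0.00855). It was -1.23 for Etv4 (adjusted p = 0.00675) and -0.69 for Etv1 (adjusted p = 0.0237). Over all 17550 genes tested, 22.3% were called by the same test. Without E16.5 mutant libraries 1 and 3, which leaves 1 mutant library at that age, the difference was 1.24 for Spry4, 0.87 for Dusp6 and -0.94 for Etv1. It was 0.46 for Il17rd, 0.31 for Spry1 and -0.70 for Etv4, no longer called.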

How the results depend on the processing

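Of the 10 genes, 6 were called at E14.5 under each other scaling, filter and tool, 5 with all 12 samples in the fit or replicates 1 and 2 alone, and 5 to 6 with 1 library left out. At E16.5 the count was 6 to 7 in every alternative that kept more than 1 mutant library, but not always in 1 direction. It was 6 higher and 1 lower without mutant library 1, where Etv1 was lower. Without mutant library 2 it was also 6 higher and 1 lower, with Etv4 lower. With age it was 8 to 9 in controls and 3 to 5 in mutants. For the difference between the genotype effects it was 5 to 6 with 1 library left out, 3 in replicates 1 and 2 alone and 3 without E16.5 mutant libraries 1 and 3, fits with fewer samples. With the replicate block, counts were 9 at E14.5 (Dusp6, Etv1 and Spred1 added), 7 at E16.5, 7 for the effect difference (Spred2 added), 5 with age in mutants (Spred1 added) and 9 in controls. At E14.5 same-numbered samples correlated at 0.0783, 0.127 and 0.559, and across ages in mutants at 0.0566, 0.0865 and 0.610, so not every pair passed 0.1 there, although replicates numbered 3 deviated together. The count over all genes at E14.5 was 1252, against 2132 in DESeq2, 3155 with the block and 526 to 1412 with 1 library left out. At E16.5 it was 4793, against 2286 in replicates 1 and 2 alone, 2496 without mutant libraries 1 and 3, 2781 to 5486 with 1 library left out, 5672 in DESeq2, 5755 with all 12 samples and 6742 with the block. For the effect difference it was 3921, against 1961 and 2017 in the same reduced fits, and 6055 with the block.

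Values that changed sign were uncalled on both sides, and the cause was not tested. For E16.5 over E14.5 in mutants, leaving out 1 library gave Dusp6 -0.018 to 0.081, Etv1 -0.13 to 0.11, Etv5 -0.069 to 0.081, Spred1 -0.21 to 0.056 and Spred2 -0.023 to 0.16. For E16.5 over E14.5 in controls it gave Etv5 -0.15 to 0.017. For the effect difference it gave Etv5 -0.036 to 0.13 and Spry2 -0.028 to 0.20, and for the E16.5 genotype effect it gave Spred2 -0.095 to 0.085. The filter at 5 CPM gave 0.043 for Dusp6, 0.0036 for Etv1 and 0.016 for Etv5 with age in mutants, and replicates 1 and 2 alone gave 0.048 for Dusp6 and 0.081 for Etv1. Upper-quartile scaling gave 0.017 for Spred2 at E16.5. Without E16.5 mutant libraries 1 and 3, the E16.5 genotype effect was 0.043 for Etv4 and 0.014 for Spred2, the effect difference was -0.16 for Etv5, -0.0099 for Spred1 and -0.086 for Spry2, and the change with age of Spry4 in mutants was -0.16. Of all values per gene, comparison and alternative, 854 stayed on the same side of 0 and of the threshold, 24 lost a call, 16 gained one and 36 changed sign. There were 3 libraries per group, and no count of the 10 genes was below 416.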

Other observations

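The authors' deposited table called the same number of the 10 genes, 6 higher and 0 lower in mutants at each age. For Spry4 the authors' deposited table gives log2 fold changes of 2.81 at E16.5 and 1.14 at E14.5, and for Etv5 0.98 and 0.88. In the authors' deposited table Dusp6 at E14.5 stands at 0.31 with an adjusted p of 0.0528, Etv4 at E16.5 at -0.40 with 0.139, and Spred1 at E16.5 at 0.32 with 0.0526.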
